A study of Sus scrofa with 9 samples.

Results

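A set of 10 genes that mark endothelial cells by their junctions and surface receptors was followed in cultured cells of the pig coronary artery. They were taken by name, as the probe sets to which the array annotation gives exactly 1 symbol, that symbol being PECAM1, CDH5, ESAM, CLDN5, TEK, TIE1, ENG, CD34, TSPAN7 or EGFL7. All 10 genes were on the array, with 16 of its 24123 probe sets. Of these 16, 13 probe sets for all 10 genes were bright enough to be tested, and each of the 13 lay above the brightness filter on all 9 arrays. CDH5, PECAM1 and ESAM each had 2 tested probe sets, told apart below by the ending of their array identifier.

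The study compared 3 groups of 3 Affymetrix porcine arrays. Passage 4 cells had been passaged each week in culture and carry the label senescent. Regenerated cells had grown back in the living vessel after its endothelium was removed, and were then scraped off and cultured with no further passage. Passage 1 cells, the controls, came from primary culture after 1 week. No group carried a drug or a genetic change, and strain and age of the pigs are not given in the labels. The labelled cRNA was made from 1 ug of RNA for passage 4 and passage 1 and from 0.5 to 1 ug for regenerated cells, so that RNA input and group cannot be told apart. Nothing in the labels says whether replicate arrays stand for different pigs or cultures, and the p-values cover array-to-array spread alone, part of which can be technical.

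Endothelial cells form a single sheet held together by adherens and tight junctions. They sense their surroundings through surface receptors, some of which other cells carry as well. VE-cadherin, PECAM-1, ESAM and claudin-5 hold neighbouring cells together. The Tie receptors bind or modulate angiopoietin signals that keep a vessel quiet, and endoglin is a co-receptor for BMP and TGF-beta ligands. These genes are commonly read as signs of endothelial identity in culture.

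The arrays were scaled alike, and 15299 probe sets were tested together with limma on log2(signal + 16), a scale that understates the change of dim probe sets. A difference was called at an adjusted p under 0.05 over all tested probe sets. Within groups, array pairs had r of 0.937 to 0.974 over probe sets, which are not independent replicates. Bacterial transcripts added before labelling showed 2 kinds of array, which no label names and which were inferred from these values. Their mean 5' minus 3' log2 signal was between -1.78 and -1.65 in the 3 passage 4 arrays and -1.72 in passage 1 array 1. All 3 regenerated arrays (-5.20 to -4.24) and the other passage 1 arrays (-5.0 and -4.06) were far lower. This division is called the spike-in kind. The 5' minus 3' difference of the pig's own Gapdh was -1.07 and -1.52 in regenerated arrays 2 and 3, and between -0.02 and 0.46 in the other 7 arrays. For the pig's actin it was -0.35 to -0.54 at passage 4 and -1.65 to -2.78 in regenerated cells, against -0.67, -1.71 and -1.37 in passage 1 arrays 1, 2 and 3, and that of ef1a was also lowest in the 3 regenerated arrays.

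Few of the 13 probe sets passed the test in either comparison with passage 1. TSPAN7 rose 4.59-fold at passage 4 (95% interval 3.13 to 6.73). In regenerated cells ENG rose 3.78-fold (2.12 to 6.74), and CLDN5 fell to 0.326 of its passage 1 level (0.203 to 0.522). In bulk RNA, fewer cells of a type and less RNA per cell cannot be told apart. One of the 2 PECAM1 probe sets also fell in regenerated cells, but the other did not pass the test. The plot of signals by array shows the 13 probe sets together.

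**Figure D1:**
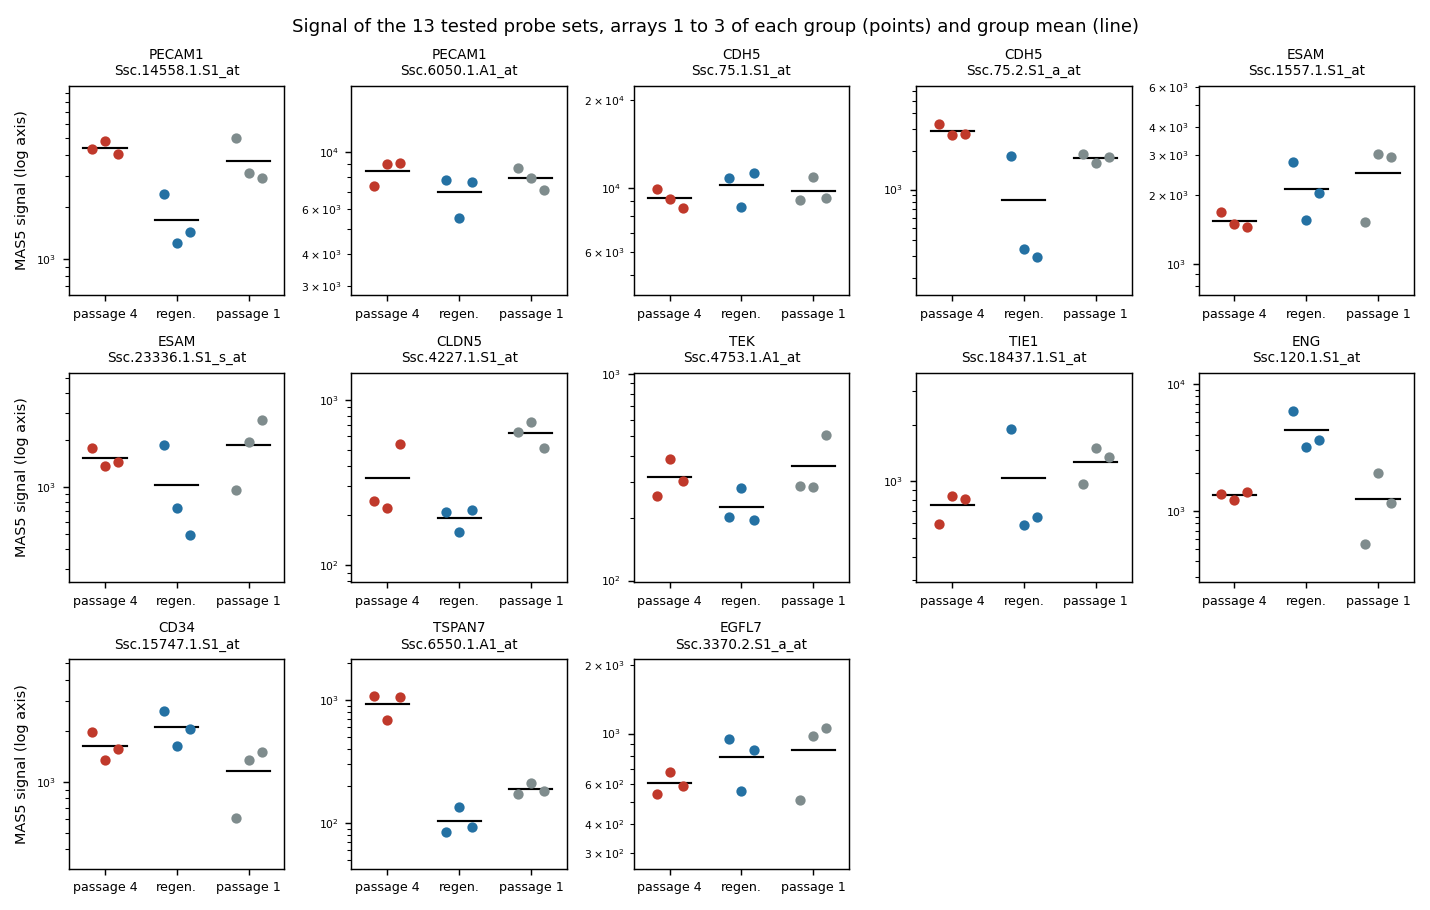
MAS5 signal (log axis) of the 13 tested probe sets in passage 4, regenerated and passage 1 cells; points are arrays 1 to 3 from left to right and the line is the group mean. TSPAN7 stands at 683 or more in every passage 4 array and at 212 or less in all others, and ENG at 3168 or more in every regenerated array and 1998 or less in the others.

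At passage 4, 1 of the 13 probe sets passed against passage 1 (7.69%), where 4.79% of all tested probe sets did (2.71% higher and 2.08% lower). The median log2 difference was -0.08 over the members and 0.04 over all tested probe sets, with 6 members higher and 7 lower. Of the 13, 3 had passage 4 and passage 1 arrays that did not overlap (23.1%), a share near the 24.9% of all tested probe sets. In regenerated cells 3 of the 13 passed against passage 1 (23.1%), 1 higher and 2 lower, where 5.49% of all tested probe sets did (2.98% higher and 2.51% lower). The median there was -0.47, against -0.01 over all, and 10 of 13 were lower. Regenerated and passage 1 arrays did not overlap for 6 of the 13 (46.2%, background 23%). Passage 4 against regenerated cells gave 4 of 13 (30.8%, background 12.5%, of which 8.14% higher and 4.35% lower), with 3 higher and 1 lower at passage 4. Arrays of those groups did not overlap for 5 of the 13 (background 36.2%). The last 2 sets of counts share the regenerated arrays, and the first 2 share the passage 1 arrays.

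**Figure D2:**
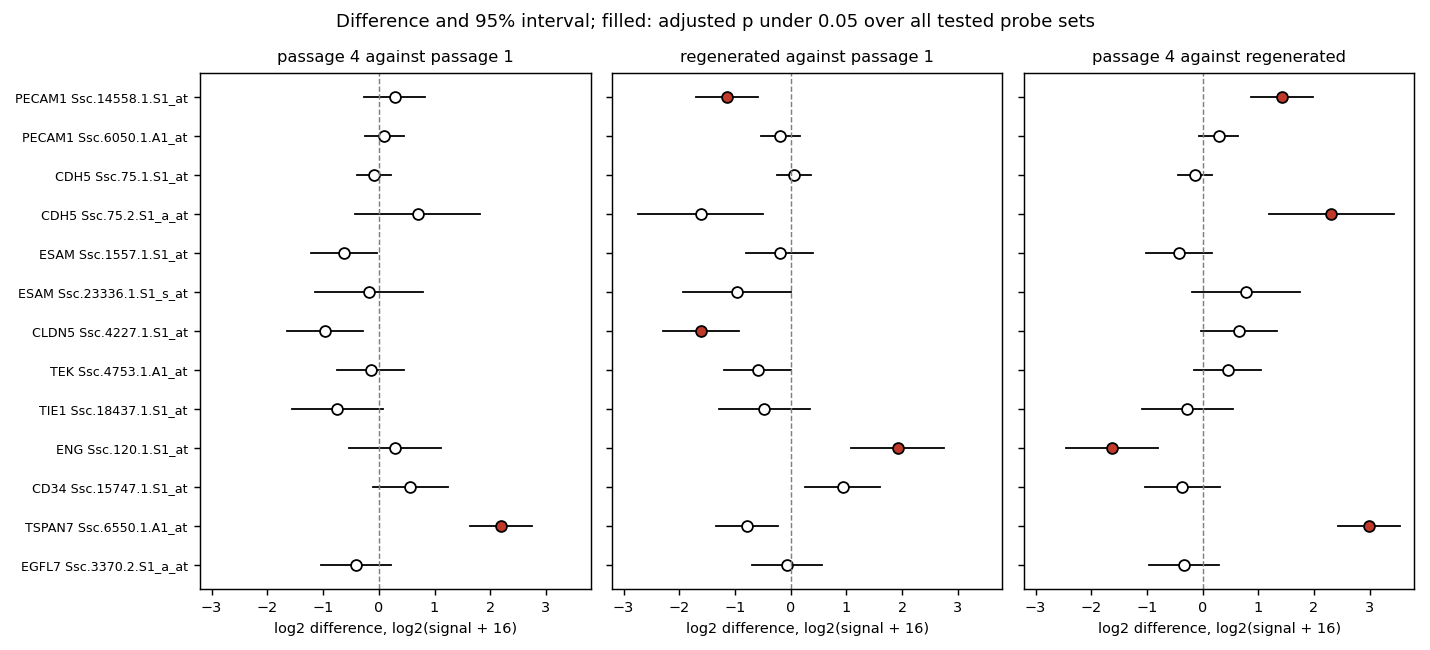
log2 difference (x axis, log2(signal + 16)) with its 95% interval for the 13 probe sets in 3 comparisons; filled points passed at an adjusted p under 0.05. One point is filled at the left (TSPAN7), 3 in the middle (PECAM1, CLDN5 and ENG) and 4 at the right (PECAM1, CDH5, ENG and TSPAN7).

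CDH5 encodes VE-cadherin, the adhesion molecule of endothelial adherens junctions. Its probe set S1_at had signals of 9924, 9106 and 8524 in the passage 4 arrays and 10763, 8562 and 11246 in the regenerated arrays, against 9096, 10855 and 9230 in the passage 1 arrays. The 3 groups overlapped throughout. The log2 difference was -0.08 at passage 4 (95% interval -0.38 to 0.22) and 0.06 in regenerated cells (-0.24 to 0.36).

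The other CDH5 probe set, S1_a_at, did not follow it. It stood at 3311, 2706 and 2737 in the passage 4 arrays and at 1845, 339 and 293 in the regenerated arrays, against 1915, 1633 and 1821 in the passage 1 arrays. Every passage 4 array was above every passage 1 array, while regenerated array 1 lay among the passage 1 arrays and regenerated arrays 2 and 3 far below. With all arrays neither comparison with passage 1 passed. The log2 difference was 0.70 (SE 0.51, adjusted p = 0.52) for passage 4 and -1.61 (adjusted p = 0.0905) for regenerated cells. The groups share this error, and the regenerated arrays spread over 2.59 log2 units, against 0.29 at passage 4 and 0.23 at passage 1. With only the 2 groups compared, the passage 4 difference of 0.70 had an SE of 0.15 and passed (adjusted p = 0.0418). It passed in 3 of 21 alternatives, but not with the spike-in kind as a block (0.60, adjusted p = 0.806). Passage 4 against regenerated passed at 2.31 (SE 0.51, adjusted p = 0.0139). Without regenerated array 1, the regenerated against passage 1 difference became -2.44 (adjusted p = 0.000484). Without regenerated arrays 2 and 3 it was 0.05, and the difference of passage 4 from regenerated was 0.65 (adjusted p = 0.232), and with the spike-in kind as a block it was 2.16 (adjusted p = 0.263).

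PECAM1 encodes the adhesion molecule PECAM-1, also called CD31, of endothelial cell contacts, platelets and leukocytes. Its probe set A1_at had signals of 7343, 8938 and 9079 in the passage 4 arrays and 7771, 5520 and 7651 in the regenerated arrays, against 8645, 7910 and 7126 in the passage 1 arrays. These overlapped, with log2 differences of 0.10 (95% interval -0.25 to 0.45) at passage 4 and -0.19 (-0.54 to 0.16) in regenerated cells.

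The second PECAM1 probe set, S1_at, was at 4334, 4806 and 4009 in the passage 4 arrays and 2378, 1241 and 1440 in the regenerated arrays, against 4984, 3150 and 2944 in the passage 1 arrays. All regenerated arrays lay below all others, and passage 1 array 1 stood with the passage 4 arrays. The regenerated against passage 1 difference was -1.14 (SE 0.25, adjusted p = 0.0253), and passage 4 against regenerated 1.42 (SE 0.25, adjusted p = 0.00613). The first of these calls held in 13 of 21 alternatives and was lost, among others, on leaving out passage 1 array 1 (-0.90, adjusted p = 0.0542), regenerated array 2 (-0.95, adjusted p = 0.103) or regenerated array 3 (-1.06, adjusted p = 0.0956). With the spike-in kind as a block the second was 0.71 (adjusted p = 0.365). Without regenerated arrays 2 and 3 the 2 differences were -0.59 (adjusted p = 0.499) and 0.87 (adjusted p = 0.229).

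ESAM encodes a tight junction adhesion molecule of endothelial cells and platelets. Probe set S1_at had signals of 1685, 1490 and 1457 in the passage 4 arrays and 2798, 1553 and 2048 in the regenerated arrays, against 1527, 3027 and 2931 in the passage 1 arrays. Passage 1 array 1 lay within the passage 4 range and arrays 2 and 3 above it. The log2 difference of passage 4 from passage 1 was -0.63 (SE 0.27, adjusted p = 0.232). Without passage 1 array 1 it was -0.94 (adjusted p = 0.0272), so that 1 array decided this call. Probe set S1_s_at was at 1780, 1369 and 1446 at passage 4 and at 1858, 736 and 495 in regenerated cells, against 967, 1948 and 2717 at passage 1. With all arrays it passed in no comparison (regenerated against passage 1 -0.96, adjusted p = 0.232). Without regenerated array 1 that difference was -1.49 (adjusted p = 0.0345), and passage 4 against regenerated was 1.31 (adjusted p = 0.0361). The remaining ESAM probe set was at 28.4 or less on all arrays and was not tested.

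For CDH5, PECAM1 and ESAM, the 2 tested probe sets thus disagreed, and most in the same arrays. With each probe set taken relative to its own passage 1 mean, S1_a_at minus S1_at of CDH5 was -0.10, -2.16 and -2.76 log2 units in regenerated arrays 1, 2 and 3. For PECAM1, S1_at minus A1_at was -0.57, -1.01 and -1.27. For ESAM, S1_s_at minus S1_at was -0.12, -0.60 and -1.55. The Gapdh 5' minus 3' difference in those arrays was -0.02, -1.07 and -1.52, the same order. For actin it was -1.65, -2.16 and -2.78. The part of labelling or RNA quality in the disagreement was not tested, and the place of each probe set along its transcript is not given in the sources used here.

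**Figure D3:**
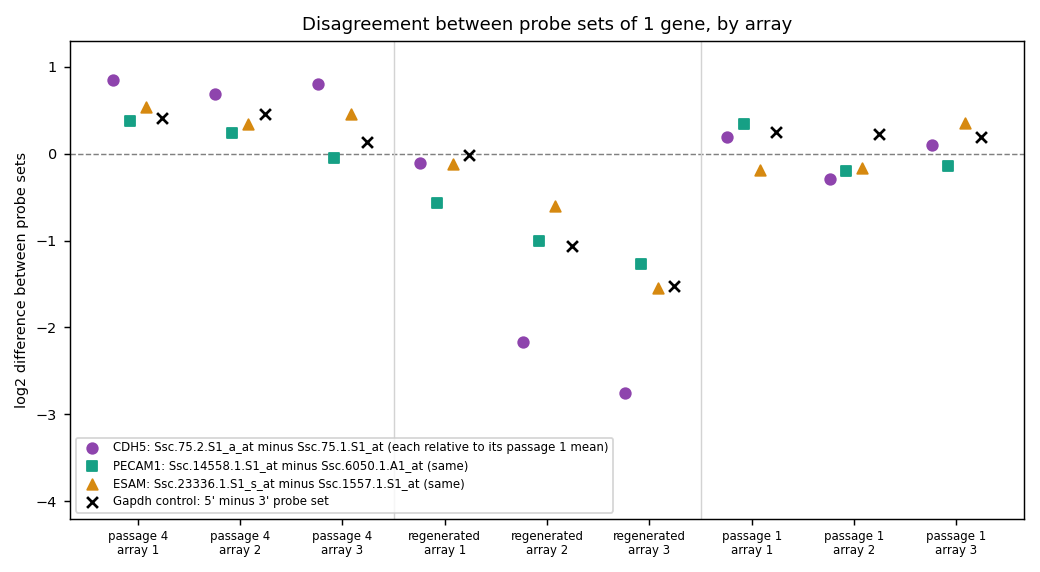
log2 difference between 2 probe sets of CDH5, PECAM1 and ESAM, each relative to its passage 1 mean, and the 5' minus 3' difference of Gapdh (y axis), in each of the 9 arrays (x axis). In regenerated arrays 2 and 3 all 4 values are at -0.60 or lower, down to -2.76 for CDH5, and in the passage 4 and passage 1 arrays they lie between -0.29 and 0.85.

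CLDN5 encodes claudin-5, the main tight junction claudin of endothelium. Its signals were 244, 222 and 538 in the passage 4 arrays and 208, 158 and 214 in the regenerated arrays, against 643, 731 and 512 in the passage 1 arrays. Every regenerated array was below every passage 4 and passage 1 array, and passage 4 array 3 stood within the passage 1 range. CLDN5 fell in regenerated cells, with a log2 difference of -1.62 (SE 0.31, adjusted p = 0.0134). Within the spike-in kind that difference was -1.60 (adjusted p = 0.0287). At passage 4 it was -0.97 (SE 0.31, adjusted p = 0.104), and -1.36 (adjusted p = 0.0302) without passage 4 array 3. Passage 4 and regenerated cells were not told apart by the test (0.65, 95% interval -0.04 to 1.33, adjusted p = 0.197). The regenerated call was lost without regenerated array 2 (-1.49, adjusted p = 0.066).

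TEK encodes TIE2, the receptor for angiopoietins. The 1 tested probe set had signals of 258, 389 and 302 at passage 4 and 203, 282 and 197 in regenerated cells, against 287, 285 and 508 at passage 1. The regenerated arrays all lay below the passage 1 arrays, with the nearest pair at 282 and 285, and the log2 difference of -0.59 did not pass (SE 0.28, adjusted p = 0.234). At passage 4 the difference was -0.15 (95% interval -0.75 to 0.46). The 2 further TEK probe sets were at 13 or less on every array and were not tested.

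TIE1 encodes the related orphan receptor that partners TIE2. It stood at 596, 836 and 810 in the passage 4 arrays and 1888, 587 and 649 in the regenerated arrays, against 973, 1501 and 1342 in the passage 1 arrays. All passage 4 arrays were below all passage 1 arrays, but the log2 difference of -0.75 did not pass (SE 0.37, adjusted p = 0.305). The regenerated arrays spread over 1.66 log2 units, array 1 above and arrays 2 and 3 below the whole passage 1 range, with a difference of -0.47 (adjusted p = 0.502). Without regenerated array 1 it was -1.0 (adjusted p = 0.0321), and without regenerated arrays 2 and 3 it was 0.59 (adjusted p = 0.547).

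ENG encodes endoglin, a co-receptor that helps BMP9 and TGF-beta signal in endothelium and that is known to rise in activated and growing vessels. It had signals of 1357, 1231 and 1405 in the passage 4 arrays and 6169, 3168 and 3634 in the regenerated arrays, against 552, 1998 and 1147 in the passage 1 arrays. All regenerated arrays were above all 6 others, while the passage 4 arrays fell inside the passage 1 range. ENG rose in regenerated cells, with a log2 difference of 1.92 (SE 0.38, 95% interval 1.09 to 2.75, adjusted p = 0.0153). Within the spike-in kind, which sets the regenerated arrays against passage 1 arrays 2 and 3, it was 1.44 (adjusted p = 0.0207). At passage 4 the difference was 0.29 (95% interval -0.54 to 1.12, adjusted p = 0.741).

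ENG at passage 4 was lower than in regenerated cells by a log2 difference of -1.63 (SE 0.38, adjusted p = 0.0177). The 3 passage 4 arrays are of 1 spike-in kind and the 3 regenerated arrays of the other, so the 2 groups share no kind. With the spike-in kind as a block, which then rests on passage 1 arrays of both kinds, the ENG difference was -0.20 (adjusted p = 0.861). Passage 1 array 1, of the passage 4 kind, had the lowest ENG signal of all 9 arrays, and with the block passage 4 against passage 1 was 1.24 (adjusted p = 0.169). Leaving out passage 4 array 1 or 2 also ended the call, at -1.64 (adjusted p = 0.0516) and -1.57 (adjusted p = 0.0601).

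CD34 encodes a sialomucin of endothelium and of blood-forming progenitors. It stood at 1951, 1341 and 1555 in the passage 4 arrays and 2628, 1635 and 2038 in the regenerated arrays, against 615, 1340 and 1496 in the passage 1 arrays. The regenerated arrays were all above the passage 1 arrays, the nearest pair at 1635 and 1496. The log2 difference was 0.93 in regenerated cells (SE 0.31, adjusted p = 0.103) and 0.57 at passage 4 (SE 0.31, adjusted p = 0.355). Neither passed, and within the spike-in kind they were 0.54 (adjusted p = 0.184) and 1.35 (adjusted p = 0.0593), in the other order.

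TSPAN7 encodes a tetraspanin, a membrane protein with 4 spans that organises partners in the plasma membrane and is known from neurons as well as from endothelium. Its signals were 1068, 683 and 1058 in the passage 4 arrays and 84.9, 135 and 92.4 in the regenerated arrays, against 171, 212 and 182 in the passage 1 arrays. The 3 groups did not overlap, with regenerated lowest and passage 4 highest. TSPAN7 rose at passage 4 by 2.20 log2 units (SE 0.25, 95% interval 1.65 to 2.75, adjusted p = 0.00145), the 19th smallest p among the 15299 probe sets. Passage 4 exceeded regenerated by 2.98 (SE 0.25, adjusted p = 0.000243), the 4th smallest p. Regenerated against passage 1 was -0.78 (SE 0.25, adjusted p = 0.095) and did not pass. Both calls held in all 21 alternatives, from 1.97 to 2.41 and from 2.56 to 3.23. With the spike-in kind as a block they were 2.32 (adjusted p = 0.02) and 3.16 (adjusted p = 0.0287). There the first difference rests on passage 1 array 1, the only passage 1 array of the passage 4 kind. Passage 4 and regenerated arrays share no kind, so the second goes through passage 1 arrays of both kinds.

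EGFL7 encodes a secreted protein of endothelial cells that takes part in vessel tube formation. It had signals of 544, 679 and 591 in the passage 4 arrays and 949, 561 and 850 in the regenerated arrays, against 511, 976 and 1055 in the passage 1 arrays. The groups overlapped, and passage 1 array 1 was the lowest of all. The log2 differences were -0.41 at passage 4 (95% interval -1.04 to 0.21) and -0.07 in regenerated cells (-0.70 to 0.55).

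By the median over the 13 probe sets, regenerated and passage 1 arrays spread more than passage 4 arrays, but CLDN5 (1.22) and TSPAN7 (0.63) had their widest range at passage 4. The median range of log2 values within a group was 0.31 at passage 4 and 0.74 in regenerated cells, against 0.76 at passage 1, and over all tested probe sets it was 0.41, 0.54 and 0.59 in the same order of groups. Passage 1 array 1 was the lowest passage 1 array for 8 of 13 members (34.1% of all tested probe sets). Relative to the mean of arrays 2 and 3 it stood at -1.43 log2 units for ENG, with CD34 at -1.18, ESAM S1_at at -0.96 and EGFL7 at -0.97, but PECAM1 S1_at at 0.71. Regenerated array 1 was the highest regenerated array for 9 of 13 (41.9% of all tested probe sets).

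**Figure D4:**
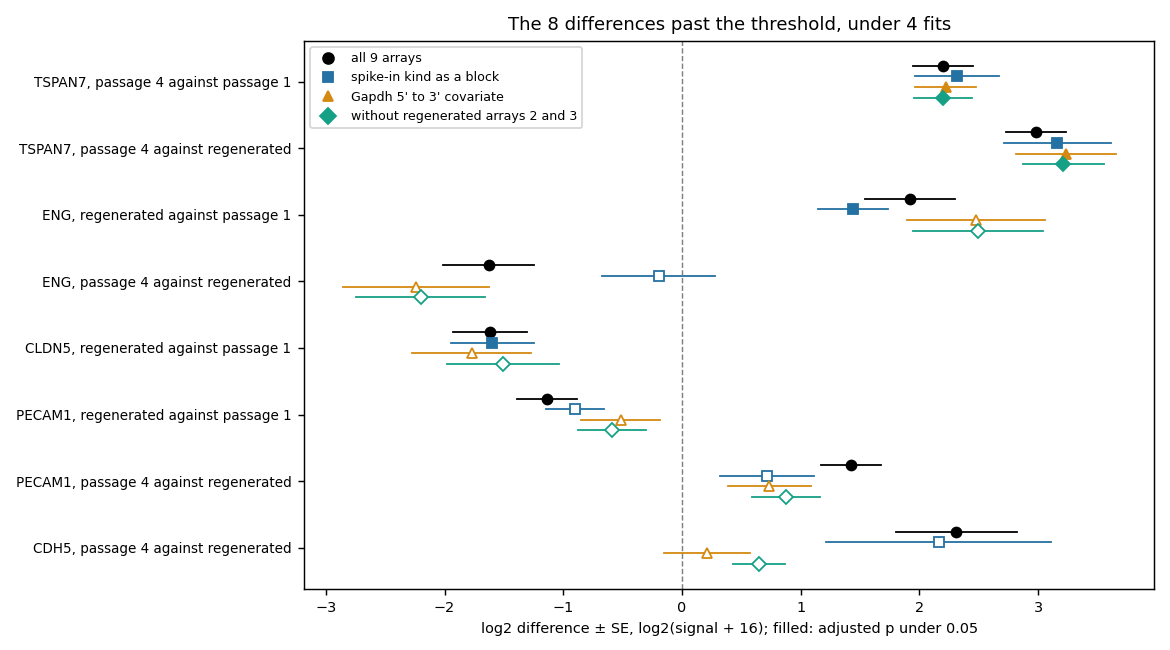
log2 difference ± SE (x axis) of the 8 differences past the threshold with all 9 arrays, beside 3 further fits; filled symbols passed at an adjusted p under 0.05. Both TSPAN7 differences stay filled in all 4 fits. Those of PECAM1 and CDH5, and that of ENG between passage 4 and regenerated cells, are open in the 3 further fits. A fit without regenerated arrays 2 and 3 has 1 regenerated array left. The Gapdh covariate rests largely on that array against arrays 2 and 3, so these 2 fits are not separate checks.

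Without regenerated arrays 2 and 3, ENG in regenerated cells was at 2.49 (adjusted p = 0.125) and CLDN5 at -1.51 (adjusted p = 0.269). That fit has 1 regenerated array, which is assumed to vary like the other groups and has little power to pass the threshold. With the Gapdh 5' minus 3' difference as a covariate, ENG in regenerated cells was at 2.47 (SE 0.58, adjusted p = 0.139) and CLDN5 at -1.77 (SE 0.50, adjusted p = 0.23), as far from 0 as before but with larger errors. PECAM1 S1_at was at -0.52 (adjusted p = 0.688) and CDH5 S1_a_at at 0.29 (adjusted p = 0.861). Of all 15299 probe sets, 37 passed there for regenerated against passage 1, compared with 840 in the fit without the covariate. Within groups the Gapdh difference varied mainly in regenerated cells (-0.02, -1.07 and -1.52), against 0.14 to 0.46 at passage 4 and 0.19 to 0.25 at passage 1. The covariate thus rests largely on regenerated array 1 against arrays 2 and 3, and is not a check separate from leaving those 2 out.

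The labelled cell type was checked on endothelial markers outside the 10 genes. ICAM2 ranged from 2753 to 3431 at passage 4 and 2590 to 2995 in regenerated cells, against 3468 to 3932 at passage 1. The sphingosine phosphate receptor gene S1PR1 and the thrombomodulin gene THBD were at 1578 or more on every array. The 3 VWF probe sets were dim, at 39.3 or less at passage 4 and 60.2 or less in regenerated cells, against 89.8 or less at passage 1. KDR was at 23.6 or less on every array, below the filter. MCAM went against the sum below, at 140 to 538 at passage 4 and 173 to 518 in regenerated cells, against 71.4 to 124 at passage 1. FLT1 was at 33.3 to 156, 24.9 to 43.8 and 62.4 to 125 in the same order of groups. NOS3 was at 684 to 1013, 1095 to 1749 and 1175 to 1857. The summed signal of the 8 such markers on the array was 8517 to 9796 at passage 4 and 10697 to 11367 in regenerated cells, against 11588 to 12559 at passage 1, with no overlap between the groups.

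Markers of other cell types were present in part. The summed signal of 10 fibroblast markers was 16713 to 24173 at passage 4 and 21241 to 26977 in regenerated cells, against 15832 to 18375 at passage 1. The regenerated range lay above that of passage 1 and overlapped that of passage 4. FN1, the fibronectin gene, made up 53.1% to 86.8% of that sum on each array. THY1, a fibroblast surface gene, was at 44.7 to 159 at passage 4 and 336 to 573 in regenerated cells, against 31.4 to 89.7 at passage 1. In the same order of groups FBLN1 was at 804 to 1195, 2697 to 4409 and 754 to 2879. DCN was at 50.9 to 190, 21.1 to 54.5 and 16.6 to 68.7, and PDGFRB at 102 to 130, 75.8 to 241 and 64.3 to 104. LUM was at 96.7 to 160 at passage 4 and 660, 30.1 and 1014 in regenerated cells, against 17.9 or less at passage 1. COL1A2 was at 122 to 221 on all arrays. POSTN, the periostin gene, was at 4892 to 9212 at passage 4 and at 13.1, 1500 and 60.2 in regenerated cells, against 685 to 1103 at passage 1. COL3A1 was at 33.4 or less on all arrays. The 10 smooth muscle markers summed to 19388 to 35779 at passage 4 and 34500 to 48793 in regenerated cells, against 18469 to 39215 at passage 1. ACTA2, the smooth muscle actin gene, was at 10021 or more in all regenerated arrays and also in passage 4 array 1 (10501) and passage 1 array 1 (13189). CNN1 was at 15.4 to 92.1 at passage 4 and 343 to 419 in regenerated cells, against 26.1 to 399 at passage 1. TAGLN and CALD1 were at 5674 or more on every array. DES and MYOCD, also on the smooth muscle list, were at 47.6 or less on all arrays. Of the 12 markers listed, 10 were on the array, and MYH11 and LMOD1 had no probe set annotated to them alone. The 11 leukocyte markers summed to 500 or less on every array, with PTPRC at 25.8 or less. The 3 platelet markers summed to 309 or less and 2 lymphatic markers to between 39.7 and 2716, PDPN in passage 4 array 3 making up 2705. The 6 epithelial markers summed to 281 to 784 at passage 4 and 108 to 203 in regenerated cells, against 490 to 2117 at passage 1. Only 1 of the 6, KRT8, lay above the filter, and it made up most of the sum on nearly all arrays. KRT8 was at 230 to 744 at passage 4 and 52.4 to 122 in regenerated cells, against 452 to 2080 at passage 1. KRT18 and KRT19 were at 4.29 or less on every array, EPCAM at 29.7 or less and CDH1 at 28.2 or less. WT1 went the other way, at 23.8 to 58.6 in regenerated cells and 6.65 to 22.5 at passage 1. The part of other cell types in the differences of the 10 genes was not tested.

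Among 13 tested junction genes outside the 10 (of 32 listed), 2 rose and 1 fell at passage 4, and 1 rose in regenerated cells. GJA4, which encodes the gap junction protein connexin 37, passed in both. Its signals were 517, 569 and 926 at passage 4 and 646, 771 and 664 in regenerated cells, against 102, 217 and 338 at passage 1. The log2 differences were 1.64 (SE 0.36, adjusted p = 0.0268) and 1.73 (SE 0.36, adjusted p = 0.0183), and within the spike-in kind 2.5 (adjusted p = 0.0144) and 1.3 (adjusted p = 0.0278). JAM3, a junctional adhesion molecule gene, rose at passage 4 by 1.06 (SE 0.22, adjusted p = 0.0215), with 329, 393 and 311 at passage 4 against 155, 164 and 150 at passage 1. Its regenerated arrays, at 347, 257 and 244, also lay above every passage 1 array, but the difference of 0.78 did not pass (adjusted p = 0.0622). Passage 4 and regenerated cells differed by 0.28 (adjusted p = 0.436). NECTIN2, a nectin gene, fell at passage 4 (log2 difference -1.2, adjusted p = 0.0441), on a passage 1 group that spread from 497 to 1273. Passage 4 against regenerated had CD99 alone, at -0.68 (adjusted p = 0.0225). Under the spike-in kind block JAM3 was 1.07 (adjusted p = 0.146), NECTIN2 -0.67 (adjusted p = 0.479) and CD99 -0.60 (adjusted p = 0.339). The list's median log2 difference was 0.01 at passage 4 and 0.19 in regenerated cells, each against passage 1, and -0.11 between passage 4 and regenerated cells. Over all tested probe sets these medians were 0.04, -0.01 and 0.01. The shares called over all tested probe sets stand beside the counts of this list and those that follow. They were 2.71% higher and 2.08% lower at passage 4, and 2.98% and 2.51% in regenerated cells. In passage 4 against regenerated cells they were 8.14% and 4.35%.

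For the angiopoietin and Tie pathway, 11 of 21 listed genes were tested. None passed at passage 4 against passage 1 with limma (1 had an unadjusted p under 0.05), TEK and TIE1 being counted apart from this list. FOXO1, a transcription factor that this pathway holds in check, rose in regenerated cells by 1.09 (SE 0.21, adjusted p = 0.0139). It was at 1091, 885 and 752 in passage 4 and 2029, 1670 and 1570 in regenerated cells, against 638, 918 and 919 at passage 1, and at 0.91 within the spike-in kind (adjusted p = 0.0309). ANGPT1, the activating ligand of TIE2, had dim signals of 67.9, 108 and 108 at passage 4 and 15.1, 20.2 and 28.1 in regenerated cells. It passed as higher at passage 4 than in regenerated cells (adjusted p = 0.0061), but every regenerated value lay below its array's 40th percentile (42.4 to 48.3), so no size is given. FOXO1 was lower at passage 4 than in regenerated cells by a log2 difference of -0.95 (adjusted p = 0.0143). With the spike-in kind as a block neither passed (adjusted p = 0.155 for ANGPT1, and 0.518 for FOXO1 at -0.43). The medians of the list were 0.04, -0.26 and 0.22 in the 3 comparisons.

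In the list of TGF-beta and BMP receptors, Smads and Id targets around endoglin, 13 of 26 genes were tested, and none passed with limma in regenerated cells against passage 1, where ENG rose (3 had an unadjusted p under 0.05, all higher). TGFB2, a TGF-beta ligand gene, rose at passage 4 by 1.55 (SE 0.39, adjusted p = 0.0445), with 3974, 3676 and 3810 at passage 4 against 2588, 749 and 1104 at passage 1. Within the spike-in kind, against passage 1 array 1, it was 0.56 (adjusted p = 0.586). TGFBR1, the type I TGF-beta receptor gene, was at -0.76 in passage 4 against regenerated cells (SE 0.21, adjusted p = 0.0345), or -1.12 with the block (adjusted p = 0.156). The medians were -0.11, 0.17 and -0.43.

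TSPAN7 was the only tetraspanin among those tested, the 13 of a list of 23 others included, to rise in a comparison with passage 1. Of the 13, 2 fell at passage 4, where 2.08% of all tested probe sets did. None passed in regenerated cells with limma (3 higher and 2 lower at an unadjusted p under 0.05). TSPAN13 fell, with a log2 difference of -1.18 (SE 0.18, adjusted p = 0.00509), with 1113, 1565 and 1249 at passage 4 against 2866, 3604 and 2484 at passage 1. TSPAN2 fell by 1.51 (SE 0.32, adjusted p = 0.0233), and both were lower at passage 4 than in regenerated cells as well (-1.68 and -2.34). Under the spike-in kind block the 4 differences kept their sign, at -1.14, -1.60, -1.62 and -2.46, with adjusted p from 0.0674 to 0.146. TSPAN9 was at 1.36 at passage 4 (adjusted p = 0.105).

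Of 42 other endothelial receptor and surface genes listed, 21 were tested. Over all tested probe sets 2.08% fell and 2.71% rose at passage 4 with limma. In this list 4 fell and 0 rose with limma (1 higher and 8 lower at an unadjusted p under 0.05). By size these were SELE, the leukocyte receptor E-selectin (-3.60), DLL4, a Notch ligand (-1.49), NOTCH4, an endothelial Notch receptor (-1.32), and NOS3, the endothelial nitric oxide synthase gene (-0.97, adjusted p = 0.045), which is named as the fourth of 4 and passed in 7 of 21 alternatives. SELE alone fell in regenerated cells (-3.11, adjusted p = 0.00638). NOTCH4 had 603, 455 and 354 at passage 4 and 1445, 1205 and 1623 in regenerated cells, against 745, 1650 and 1302 at passage 1. In passage 4 against regenerated cells NOTCH4 (-1.59), AQP1, a water channel gene (-3.32), and EFNB2, an arterial ephrin gene (-1.08), were lower at passage 4. The AQP1 signals were 156, 104 and 141 at passage 4 and 1531, 1408 and 1456 in regenerated cells. With the spike-in kind as a block NOTCH4 was -0.68 and -0.63 in its 2 comparisons, DLL4 -1.09, NOS3 -0.55, EFNB2 -0.65, AQP1 -1.84 and SELE -2.90 at passage 4, with adjusted p of 0.0756 or more. SELE in regenerated cells was -3.47 there (adjusted p = 0.00635). The list's medians were -0.46, -0.23 and -0.20.

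Of the 22 calls in these related lists, 18 were lost with the spike-in kind as a block and 14 on leaving out some single array. The 8 that held on leaving out each array were those of SELE (2), TSPAN13 (2), and, between passage 4 and regenerated cells, ANGPT1, TSPAN2, NOTCH4 and AQP1.

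The probe sets most like each changed member were sought among about 7670 tested ones with a single symbol, by the mean absolute difference of gene-centred log2 values over the 9 arrays, as a description with no test. Some of the probe sets below had signals under 10 on the arrays where they were low, so their likeness there rests on no measured level. TSPAN7 was nearest to GPRC5C (0.32), BOP1 (0.32) and FST (0.39), with GPRC5C at 6.45 or less in all 6 regenerated and passage 1 arrays. FST had 1353, 1362 and 1007 at passage 4 and 68.3, 195 and 114 in regenerated cells, against 168, 309 and 512 at passage 1. ENG was nearest to ITGB5 (0.30), EFEMP2 (0.32) and PKD1 (0.32), and ITGB5 had 5687, 4591 and 5360 in regenerated cells against 1838, 2155 and 1521 at passage 1. CLDN5 was nearest to PDXK (0.27), PSMB10 (0.27) and IFI35 (0.29). PECAM1 S1_at was nearest to PCYOX1 (0.12), OCLN (0.15) and HNRNPK (0.16). That OCLN probe set was at 38.1 to 217. A brighter OCLN probe set was at -0.27 in regenerated cells against passage 1 and 0.61 in passage 4 against regenerated cells. It passed in neither (limma adjusted p = 0.479 and 0.0715). CDH5 S1_a_at was nearest to SCYL3 (0.18), SDHA (0.18) and THOC5 (0.21). For SDHA, as for that CDH5 probe set, regenerated arrays 2 and 3 stood apart, at 221 and 140 against 889 in regenerated array 1.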

How the data were processed

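RNA of 9 cell samples was hybridised to 1-colour Affymetrix porcine arrays. The deposited intensities, 1 per probe set, are linear and were made by the authors with MAS5, per the submitters' processing notes. Version, scaling target and detection calls of MAS5 are not known here. Because the 2% trimmed mean equalled 500.1 on each array, values were not normalized again. Groups came from the sample titles.

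After removal of 124 control probe sets, those exceeding the 40th percentile of at least 3 of 9 arrays were kept. One limma 3.58.1 model (R 4.3.3; lmFit, eBayes with an intensity trend, 6 residual and 5.65 prior degrees of freedom) covered all arrays on log2(signal + 16). P-values are two-sided and Benjamini-Hochberg adjusted over every tested probe set. The code was tested on simulated data. By the platform annotation 10099 probe sets had 1 gene symbol, 198 had several and 13826 had none. No coordinates are given, as the files name no genome.

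All members are named whatever their result. From each related list up to 3 called genes per comparison are named, on the brightest probe set. The members and lists were chosen with earlier results of these data known. Alternatives were 2 pseudocounts, 2 filters, quantile and median scaling, no trend, 2 groups alone, a replicate block, the spike-in kind as a block, and leaving out each array. Leaving out regenerated arrays 2 and 3 together and the Gapdh covariate were chosen after seeing the data. The number of arrays limits the precision.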

Additional observations from a re-analysis of the deposited data

Results flagged for a closer look

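Of the 13 probe sets, 4 differed between passage 4 and regenerated cells, the 2 groups compared with the same passage 1 controls. Their log2 differences, passage 4 minus regenerated, were 2.98 for TSPAN7 (adjusted p = 0.000243), 2.31 for CDH5 S1_a_at (adjusted p = 0.0139), 1.42 for PECAM1 S1_at (adjusted p = 0.00613) and -1.63 for ENG (adjusted p = 0.0177), each by limma. Every passage 4 array lay beyond every regenerated array for all 4 probe sets, which were picked by this same comparison. Over all 13 members the arrays of these groups did not overlap for 5 (38.5%), near the 36.2% of all tested probe sets. The other tested probe sets of CDH5 (S1_at) and PECAM1 (A1_at) were at -0.14 and 0.29 in the same comparison and did not pass (adjusted p = 0.539 and 0.265). The 2 groups share no spike-in kind of array. With that kind as a block TSPAN7 still passed (3.16, adjusted p = 0.0287), and the others did not, at 2.16 for CDH5 (adjusted p = 0.263), 0.71 for PECAM1 (adjusted p = 0.365) and -0.20 for ENG (adjusted p = 0.861).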

How the results depend on the processing

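With all 9 arrays, 1, 3 and 4 of the 13 member probe sets passed when passage 4 and then regenerated cells were set against passage 1, and when passage 4 was set against regenerated cells. Leaving out 1 array at a time gave 1 to 2, 1 to 6 and 2 to 5. The 6 and the 5 arose without regenerated array 1, the 1 without regenerated array 2 (ENG alone), and the 2 of the last range without passage 4 array 1. With the spike-in kind as a block, passage 4 against regenerated kept 1, TSPAN7. Without regenerated arrays 2 and 3 the counts were 2, 0 and 1, and with the Gapdh covariate 1, 0 and 1. Leaving out those 2 arrays leaves 1 regenerated array, assumed to vary like the other groups, so its counts say little about stability. The covariate rests largely on regenerated array 1 against arrays 2 and 3, so it is not a separate check. For the 2 counts of 0 from limma, 4 probe sets had an unadjusted p under 0.05 in each. The fit of only the 2 groups compared gave 2 for passage 4 against passage 1, CDH5 and TSPAN7. The spike-in kind block leaves 1 passage 1 array beside the passage 4 arrays. In passage 4 against passage 1 its error was larger for TSPAN7 (SE 0.35, against 0.25 without the block). For ENG (0.37 against 0.38) and CD34 (0.29 against 0.31) it was not.

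No called member reversed. In passage 4 against passage 1, uncalled values changed sign with the spike-in kind block for PECAM1 (-0.19 and -0.039), CDH5 (0.011), ESAM (0.013 and 0.65), TEK (0.11) and EGFL7 (0.23), and with median centring for PECAM1 (-0.061). In regenerated against passage 1 they did so without regenerated arrays 2 and 3 for CDH5 (0.047), ESAM (0.23 and 0.11), TIE1 (0.59) and EGFL7 (0.23), with the Gapdh covariate for CDH5 (0.29), ESAM (0.20 and 0.32), TIE1 (0.65) and EGFL7 (0.14), and with quantile normalization for CDH5 (-0.0047). In passage 4 against regenerated they did so with the block for ESAM (0.53), TIE1 (0.26), CD34 (0.82) and EGFL7 (0.63), and for ESAM without regenerated arrays 2 and 3 (-0.29) and with the covariate (-0.63). With 1 array left out, values that changed sign ranged, at passage 4 against passage 1, over -0.19 to 0.73 for ENG, -0.14 to 0.00060 for CDH5, -0.59 to 0.15 for ESAM and -0.30 to 0.12 for TEK. In regenerated cells they ranged over -0.014 to 0.18 for CDH5, -0.52 to 0.0055 for ESAM and -0.40 to 0.15 for EGFL7, and between passage 4 and regenerated cells over -0.57 to 0.25 for TIE1. The cause was not tested.

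Over all tested probe sets the counts of 733, 840 and 1912 were 150, 926 and 35 with the spike-in kind block, and 244 to 1403, 291 to 1238 and 895 to 2406 with 1 array left out. Regenerated against passage 1 gave 479 with only the 2 groups and 554 with the replicate block, 37 without regenerated arrays 2 and 3 and 37 with the covariate. Passage 4 against regenerated gave 51 and 31 there. Deviations of same-numbered arrays correlated with r from -0.14 to 0.19, and those of differently numbered arrays with r from -0.20 to 0.18. No pairing by replicate number was seen, but with 3 arrays a group such correlations cannot exclude a shared pig or culture. With the replicate block 1, 3 and 4 members passed.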
